A study of Bos taurus with 8 samples.

Results

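The miR-15 and miR-16 family was followed in the rumen fluid of cattle through its 6 bovine members, bta-miR-15a, bta-miR-15b, bta-miR-16a, bta-miR-16b, bta-miR-195 and bta-miR-497. They were taken by name from the deposited count tables, in which 565 mature miRNA entries were listed, and all 6 were among the 377 that reached 10 reads in some library. Small RNA of rumen fluid was sequenced from 4 non-lactating, ruminally cannulated Holstein cows. Each cow gave 1 library on a forage diet with 0% concentrate and 1 library on a high-grain diet (HG) with 65% concentrate, so that each diet had 4 libraries, numbered 1 to 4. The forage samples came first and the HG samples were drawn on the first day at the full share of concentrate, so diet and sampling date cannot be told apart. The question was whether the abundance of these miRNAs in rumen fluid moved with the diet.

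MicroRNAs of this family carry the same seed, the short stretch at the 5′ end that pairs with target mRNAs, and are known to repress regulators of the cell cycle and of survival such as cyclin D1, cyclin E1 and BCL2. Their genes lie in pairs that are transcribed together, and the miR-15a and miR-16 pair is known as a tumour suppressor that is lost in chronic lymphocytic leukaemia. MiR-16 is abundant in red blood cells and in plasma, and is widely used as a reference miRNA in body fluids. Rumen fluid holds feed, microbes, saliva and cells shed from the rumen wall, and the share of a miRNA in it does not tell its cell of origin.

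The libraries held between 300116 and 522804 reads assigned to miRNAs, which was 6.67% to 29.3% of all their reads. HG replicate 2 stood apart from the other 7 libraries. Over the miRNA entries without multi-mapping reads, the chi-square of its counts against each other library was 23.8 to 28.7 per degree of freedom, where counting error alone gives about 1, against 1.01 to 2.40 among the other 7. The shares, the family total and the diet test of the members are therefore given with and without it.

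The deposited tables place the members on the minus strand of the bovine genome build UMD3.1. Bta-miR-15a was listed at chr12:19596359-19596379 and bta-miR-16a at chr12:19596213-19596234, with 124 bases between them. Bta-miR-15b was listed at chr1:107923398-107923419 and bta-miR-16b at chr1:107923252-107923272, with 125 bases between them. Bta-miR-195 was listed at chr19:27441357-27441378 and bta-miR-497 at chr19:27441675-27441696, with 296 bases between them. In 21 of 21 minus-strand hairpins with both arms listed the 5′ arm had the lower coordinates, as it had in 40 of 40 plus-strand hairpins, so these positions locate the hairpin and not the exact bases of the mature miRNA. In the RefSeq gene table of a later bovine assembly, ARS-UCD2.0, the miR-15a and miR-16a genes lie within LOC100847818, a transcribed pseudogene next to KCNRG. The miR-15b and miR-16b genes lie within SMC4, which encodes a condensin subunit, between TRIM59 and IFT80. The miR-195 and miR-497 genes lie within the long non-coding RNA gene LOC107131510, between C19H17orf49 and BCL6B. The table gives no exons, so exonic and intronic positions were not told apart.

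The miR-15b/miR-16b pair supplied most of the family and the miR-195/miR-497 pair almost none of it. Total reads over the 8 libraries were 81803 for bta-miR-16b, 61988 for bta-miR-15b, 39370 for bta-miR-16a, 6523 for bta-miR-15a, 1764 for bta-miR-195 and 191 for bta-miR-497. Expressed as a share of the miRNA reads of each library, the lowest value of a member over the 8 libraries lay above the highest value of the next member at every step of this order. The narrowest step was from bta-miR-16b, with a lowest share of 2.03% in HG replicate 2, to bta-miR-15b, with a highest share of 2.02%. This holds for reads counted in full at each entry. With shared reads divided, the lowest share of bta-miR-16b, summed with its human counterpart, was 1.997%, so that these 2 ranges overlapped. Within each library bta-miR-16b exceeded bta-miR-15b in 8 of 8 by either count. Among the bovine entries bta-miR-16b ranked 9 in 7 libraries and 11 in HG replicate 2. Bta-miR-15b ranked 13 to 15, bta-miR-16a 16 in 7 libraries and 22 in HG replicate 2, bta-miR-15a 60 to 69, bta-miR-195 105 to 113, and bta-miR-497 179 to 215.

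Bta-miR-16b, the most abundant member, took 2.54%, 2.55%, 2.60% and 2.71% of miRNA reads in forage replicates 1 to 4. On the HG diet it took 2.60%, 2.03%, 2.65% and 2.61%. The diets overlapped, and HG replicate 2 lay below the other 7 libraries. The mean was 2.60% ± 0.0792 on forage and 2.47% ± 0.293 on HG (SD, n = 4 each), or 2.62% ± 0.0249 on HG without replicate 2 (n = 3).

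Bta-miR-15b, the partner transcribed with bta-miR-16b, took 2.01%, 1.94%, 2.01% and 2.02% on forage. Its HG shares were 1.94%, 1.46%, 1.98% and 1.95%. Forage replicate 2 lay within the range of HG replicates 1, 3 and 4, and HG replicate 2 was again the lowest library. The means were 1.99% ± 0.0354 on forage and 1.83% ± 0.249 on HG, and 1.96% ± 0.0230 on HG without replicate 2.

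Bta-miR-16a, whose mature sequence comes from the other miR-16 gene, took 1.28%, 1.23%, 1.24% and 1.26% on forage and 1.23%, 0.980%, 1.27% and 1.23% on HG. Apart from HG replicate 2 the values of both diets covered the same range. The means were 1.25% ± 0.0190 on forage and 1.18% ± 0.135 on HG, and 1.25% ± 0.0251 on HG without replicate 2.

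Bta-miR-15a, listed beside bta-miR-16a, was the scarcer partner, with 0.216%, 0.195%, 0.211% and 0.208% on forage and 0.1996%, 0.1776%, 0.2001% and 0.2072% on HG. HG replicate 2 was the lowest library and forage replicate 2 the next lowest. The means were 0.208% ± 0.00881 on forage and 0.196% ± 0.0128 on HG, and 0.202% ± 0.00423 on HG without replicate 2.

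Bta-miR-195, a member known from heart muscle as a brake on cell division, was counted on a per-million scale of miRNA reads (RPM) and stood at 514, 593, 480 and 573 RPM on forage. On HG it stood at 593, 461, 609 and 567 RPM. The diets overlapped over most of their range, with means of 540 ± 52.0 RPM on forage and 558 ± 66.6 RPM on HG. Without HG replicate 2 the HG mean was 590 ± 21.3 RPM, still within the forage range of 480 to 593 RPM.

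Bta-miR-497, which is processed from the same transcript as bta-miR-195, was at the lower end of what these libraries resolve, with 33, 31, 28 and 23 reads on forage and 9, 22, 19 and 26 reads on HG. These were 66.8, 59.3, 61.4 and 69.3 RPM on forage and 30.0, 65.4, 48.6 and 67.0 RPM on HG. HG replicate 1 was the lowest library and HG replicate 2 did not stand apart. The means were 64.2 ± 4.64 RPM on forage and 52.8 ± 17.3 RPM on HG, and 48.5 ± 18.5 RPM on HG without replicate 2.

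**Figure D1:**
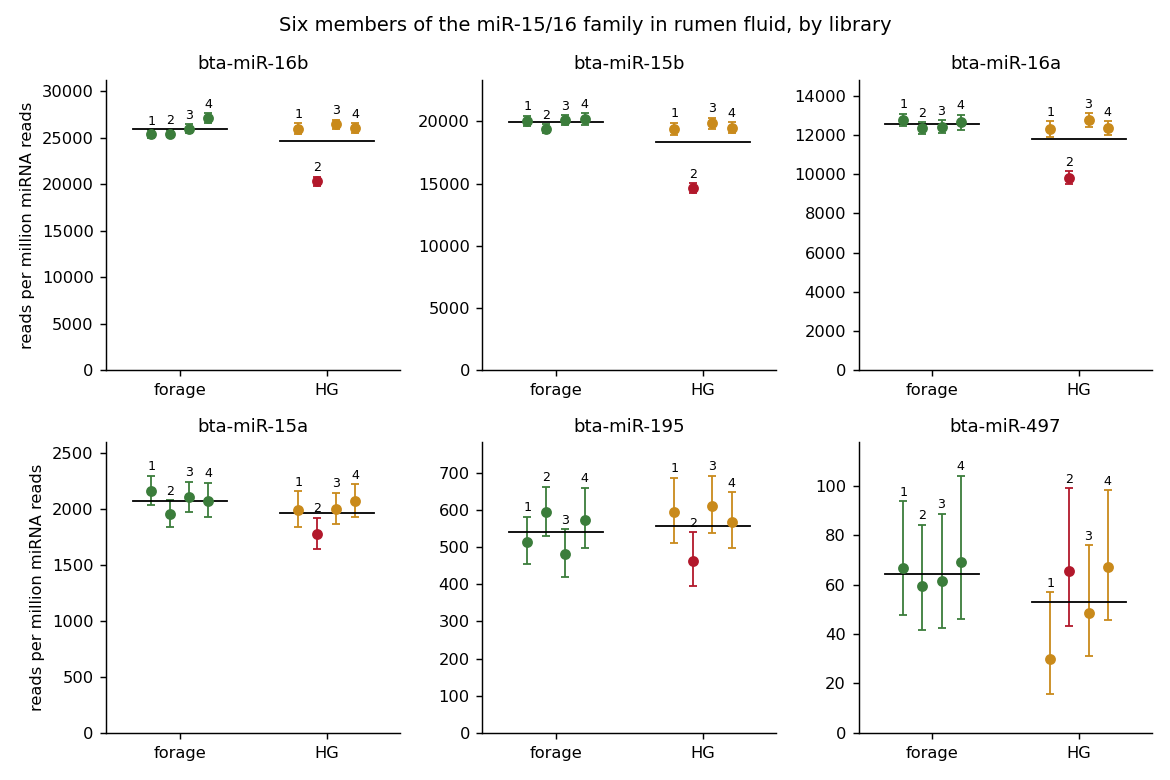
RPM, on the scale of miRNA reads (y axis, from 0), of each member in each library, with forage in green and HG in orange, HG replicate 2 in red, the replicate number above each point, 95% Wilson intervals that cover counting error only as bars, and the mean of each diet as a black line. HG replicate 2 lies below the other libraries for bta-miR-16b, bta-miR-15b and bta-miR-16a, while the intervals of bta-miR-497 overlap across all 8 libraries.

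Some reads were counted at more than 1 entry, which bears on how the members are told apart. Mature miR-16a and miR-16b are near-identical, and 368 to 761 reads per library were counted at both, which was 11.2% to 12.4% of the reads of bta-miR-16a and 5.38% to 5.78% of those of bta-miR-16b. Bta-miR-16b also had the same read count in all 8 libraries as the human entry hsa-miR-16-5p, which was placed at the same locus with 22 bases in place of 21. The same held for bta-miR-15a and hsa-miR-15a-5p. Reads of bta-miR-15b, bta-miR-195 and bta-miR-497 were hardly shared, and division of shared reads left 99.9% to 100.0%, 98.4% to 100.0% and 100.0% of them at these entries.

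With each read counted once, the family as a whole supplied 15441 to 30509 reads per library. This was 5.95%, 5.84%, 5.97% and 6.11% of miRNA reads in forage replicates 1 to 4 and 5.89%, 4.59%, 6.02% and 5.91% in HG replicates 1 to 4. The means were 5.96% ± 0.111 on forage and 5.60% ± 0.676 on HG, and 5.94% ± 0.0715 on HG without replicate 2, so the 7 remaining libraries lay within 5.84% to 6.11%. In HG replicate 2 the share was 22.8% below the mean of the other 7. The division of the family among its gene pairs moved less. The miR-15b/miR-16b pair held 75.3% to 76.6% of family reads, the miR-15a/miR-16a pair 22.4% to 23.6% and the miR-195/miR-497 pair 0.895% to 1.15%. HG replicate 2 had the lowest share of miR-15b/miR-16b, at 75.3%, and the highest shares of miR-15a/miR-16a and miR-195/miR-497, at 23.6% and 1.15%.

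**Figure D2:**
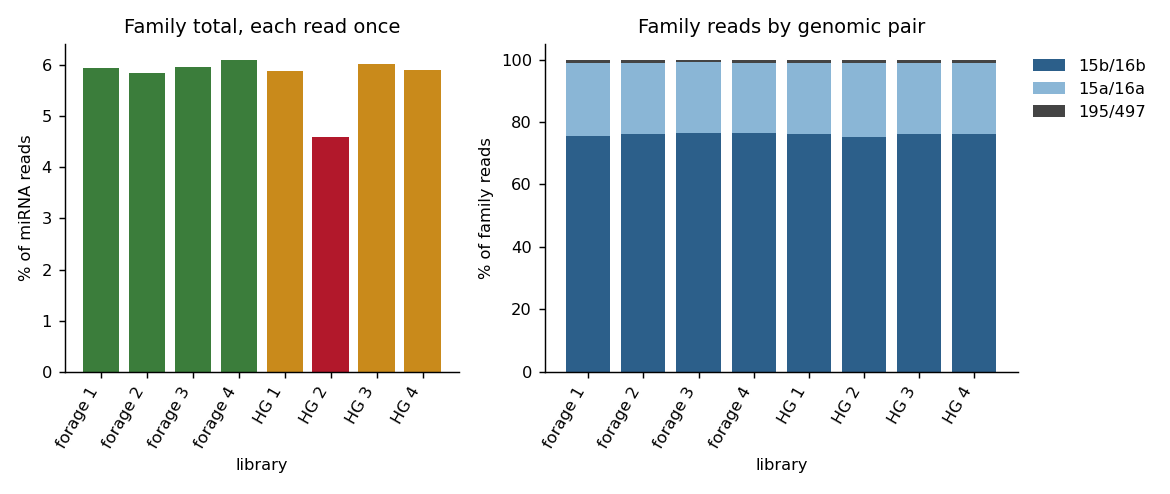
Family total in percent of miRNA reads (left, each read counted once) and the division of family reads among the genomic pairs in percent (right) for each of the 8 libraries, with forage in green, HG in orange and HG replicate 2 in red on the left. The total is 5.84% to 6.11% in 7 libraries and 4.59% in HG replicate 2, while the miR-15b/miR-16b pair stays between 75.3% and 76.6% of family reads.

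Within a pair the members come from the same primary transcript, and their read ratio was taken as a further measure. Bta-miR-15b to bta-miR-16b ran from 0.719 in HG replicate 2 to 0.790 in forage replicate 1, with 0.768 ± 0.0192 on forage and 0.741 ± 0.0148 on HG. Bta-miR-15a to bta-miR-16a ran from 0.157 to 0.181, with means of 0.165 ± 0.00539 on forage and 0.167 ± 0.0104 on HG. Bta-miR-195 to bta-miR-497 ran from 7.05 to 19.8, a spread that rests on the few reads of bta-miR-497. Across the pairs, bta-miR-16b to bta-miR-16a stayed within 1.99 to 2.14. For all 4 ratios the ranges of forage and HG overlapped.

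The members also differed in how many distinct read sequences were assigned to them. Bta-miR-16b was represented by 63 to 101 sequences per library, bta-miR-15b by 53 to 83, bta-miR-16a by 41 to 81, bta-miR-15a by 18 to 24, bta-miR-195 by 8 to 13 and bta-miR-497 by 2 to 5. The order was that of the read totals. Of the opposite arms of these hairpins, hsa-miR-15a-3p was found with 7 reads in all, in forage replicates 2 and 3 and HG replicate 2, and hsa-miR-16-1-3p with 2 reads in HG replicate 2. In forage replicate 2, the deepest library, a count of 0 allows up to 5.74 RPM.

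No member changed with the diet by the test. The quasi-likelihood test of edgeR, blocked on cow, with Benjamini-Hochberg adjustment over the 377 entries called 0 entries (0%) at an adjusted p of 0.05, members included. At an unadjusted p under 0.05 it found 9 entries (2.39%), none of them a member, and DESeq2 called 0 entries and found 3 at an unadjusted p under 0.05. The median log2 fold change from forage to HG was −0.04 over the 6 members and 0.03 over the 377 entries. Of the members 5 lay below 0, and 4 without replicate 2 on both diets. The members are not independent, since some share reads, so this number is no measure of its own. Ranges of forage and HG shares did not overlap for 15 of the 377 entries (3.98%), and for 0 members. The direction was the same in 4 of 4 cows for 59 of the 377 entries (15.6%), among them bta-miR-15a and bta-miR-15b, which were lower on HG in each pair of same-numbered libraries. These counts depend on the pairing of libraries by number, which is uncertain, since same-numbered libraries did not deviate together. Bta-miR-15a in forage replicate 2 (0.195%) lay below HG replicates 1, 3 and 4, so that its count of 4 would not hold with another partner. Bta-miR-15b in forage replicate 2 likewise lay below HG replicates 3 and 4. By the same pairing, bta-miR-16a and bta-miR-497 were lower on HG in 3 of 4 cows, and bta-miR-16b and bta-miR-195 in 2 of 4.

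For the abundant members the interval of the diet difference was narrow. Bta-miR-16b had a log2 fold change of −0.03 with a 95% interval from −0.13 to 0.07 (edgeR adjusted p = 0.830). Bta-miR-16a stood at −0.05, from −0.15 to 0.06 (edgeR adjusted p = 0.798), and bta-miR-15b at −0.08, from −0.20 to 0.03 (edgeR adjusted p = 0.788). Bta-miR-15a, with fewer reads, stood at −0.03, from −0.18 to 0.12 (edgeR adjusted p = 0.880). The members of the third pair were less well measured. Bta-miR-195 had 0.09, from −0.18 to 0.36, and bta-miR-497 −0.26, from −0.98 to 0.47 (edgeR adjusted p = 0.830 for both), so that for bta-miR-497 a fall to nearly a 2-fold lower level lies within the interval.

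Without replicate 2 on both diets, edgeR called 2 of 361 entries (0.554%), both lower on HG and neither a member, and 17 entries (4.71%) had an unadjusted p under 0.05. Bta-miR-15b was among the latter, with a log2 fold change of −0.04 (unadjusted p = 0.0385, edgeR adjusted p = 0.722), a difference that did not pass the correction. This fit uses the uncertain pairing. With no replicate block and without HG replicate 2, edgeR gave an unadjusted p under 0.05 for 16 of 371 entries and for 0 members. The value of bta-miR-16b turned from −0.03 to 0.00 (edgeR adjusted p = 0.981). Bta-miR-16a moved from −0.05 to −0.02 and bta-miR-15a from −0.03 to −0.06 (edgeR adjusted p = 0.924 and 0.722). The values of the scarcest members depended on which cow was left out. Over the 4 cows left out in turn, bta-miR-195 ran from 0.0090 without replicate 3 to 0.18 without replicate 2, with 0.05 without replicate 1 and 0.12 without replicate 4. Bta-miR-497 ran from −0.43 without replicate 2 to −0.02 without replicate 1, with −0.24 and −0.35 without replicates 3 and 4. The lowest edgeR adjusted p of either over these settings was 0.722.

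**Figure D3:**
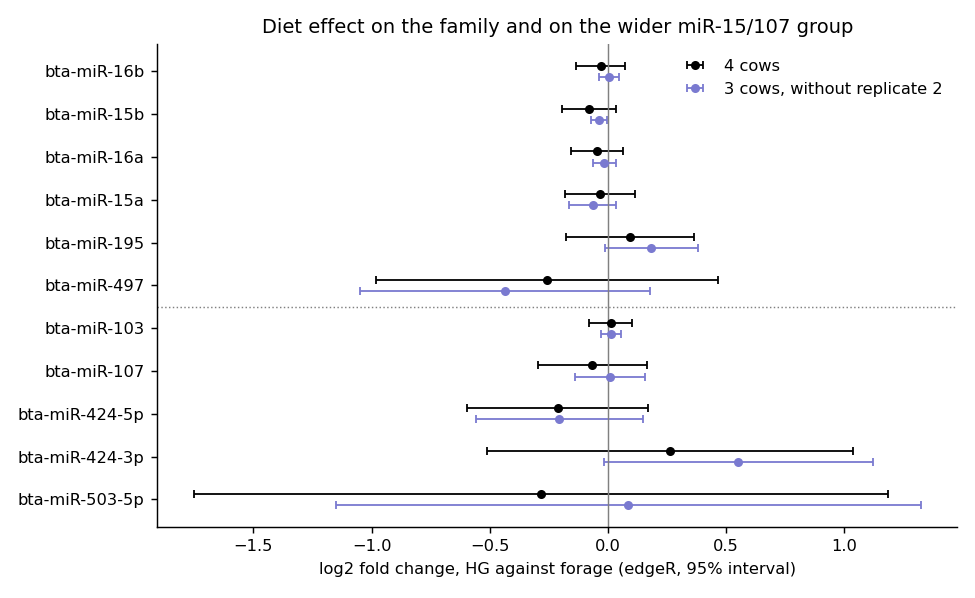
Log2 fold change from forage to HG by edgeR (x axis) with 95% intervals for the 6 members (above the dotted line) and the bovine entries of the wider miR-15/miR-107 group (below it), with 4 cows in black and without replicate 2 in blue. With 4 cows all intervals include 0, and among the members the interval is narrowest for bta-miR-16b (−0.13 to 0.07) and widest for bta-miR-497 (−0.98 to 0.47).

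The wider miR-15/miR-107 group has seeds related to that of the family and is represented here by miR-103 and miR-107, which lie in the pantothenate kinase genes, and by miR-424 and miR-503, which lie side by side on the X chromosome. None of its 5 listed bovine entries was called for the diet. Most reads of bta-miR-103 and bta-miR-107 were also counted at other entries, so their levels are those of shared reads. Per library, bta-miR-103 had 3395 to 5989 reads in full and 1097 to 1919 after division, and bta-miR-107 had 200 to 441 in full and 30.2 to 67.0 after division. Bta-miR-103, of similar abundance to bta-miR-16a, had 11261 to 11648 RPM on forage and 10100 to 11631 RPM on HG, with a log2 fold change of 0.01 from −0.08 to 0.10 (edgeR adjusted p = 0.920), or −0.01 with divided reads. Bta-miR-107 had 844 to 862 RPM on forage and 595 to 906 RPM on HG, with a log2 fold change of −0.07 (edgeR adjusted p = 0.830), or −0.11 with divided reads. Bta-miR-424-5p had 134 to 153 RPM on forage and 98.2 to 142 RPM on HG, with a log2 fold change of −0.21 (edgeR adjusted p = 0.788). The opposite arm, bta-miR-424-3p, had a log2 fold change of 0.26 (edgeR adjusted p = 0.830), and bta-miR-503-5p, with 2 to 16 reads per library, −0.28 (edgeR adjusted p = 0.880). Without replicate 2 on both diets the fold changes of bta-miR-107 and bta-miR-503-5p turned, to 0.01 and 0.09 (edgeR adjusted p = 0.981 for both). Leaving out HG replicate 2 alone, the lowest library for 4 of these 5 entries, left ranges of 11296 to 11631 RPM for bta-miR-103 and 798 to 906 RPM for bta-miR-107 on HG.

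HG replicate 2 held less of 5 of the 6 members than the mean of the other 7 libraries. On the log2 scale the difference was −0.44 for bta-miR-15b, −0.36 for bta-miR-16b, −0.35 for bta-miR-16a, −0.28 for bta-miR-195 and −0.21 for bta-miR-15a, and it was 0.19 for bta-miR-497, which had 22 reads there. The median over the members was −0.32. Over all 377 entries the median was −0.23 and 251 entries (66.6%) were lower in this library, so the direction of the members was that of most entries. No test is given, since there is 1 such library.

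Marker miRNAs of the cell types that rumen fluid could hold moved in the same library. The erythrocyte markers bta-miR-451, bta-miR-144 and bta-miR-486 were lower in 3 of 3 (log2 differences of −0.43, −0.37 and −0.48), and their summed share was 14.98% of miRNA reads against 19.8% to 20.6% in the other 7 libraries. Leukocyte markers were lower in 4 of 6, with a median of −0.36 and a summed share of 1.87% against 2.26% to 2.33%. The 2 that were higher were bta-miR-146a (0.56) and bta-miR-142-3p (0.26), the opposite arm of bta-miR-142-5p (−0.40). Stroma and smooth muscle markers were higher in 7 of 8, with a median of 0.61 and 9.84% against 7.05% to 7.61%. This list included the endothelial bta-miR-126-3p (0.57) and bta-miR-126-5p (0.64). Most reads of its summed share came from bta-miR-143 alone, with 27088 reads in HG replicate 2 and a log2 difference of 0.43. Epithelial markers were higher in 5 of 6 listed, with a median of 0.42 and 2.80% against 2.04% to 2.13%, and bta-miR-203, a marker of keratinised epithelium, was not listed. The part of these cell types in the values of the family was not tested. Between diets the summed shares of leukocyte, stroma and epithelial markers overlapped. That of erythrocyte markers did not, with 20.17% as the highest HG value and 20.20% as the lowest forage value. No test was made of this sum. Taken singly, none of the 3 erythrocyte markers was called for the diet. Their log2 fold changes were −0.08 for bta-miR-451, −0.08 for bta-miR-486 and −0.01 for bta-miR-144 (edgeR adjusted p = 0.788, 0.788 and 0.939).

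**Figure D4:**
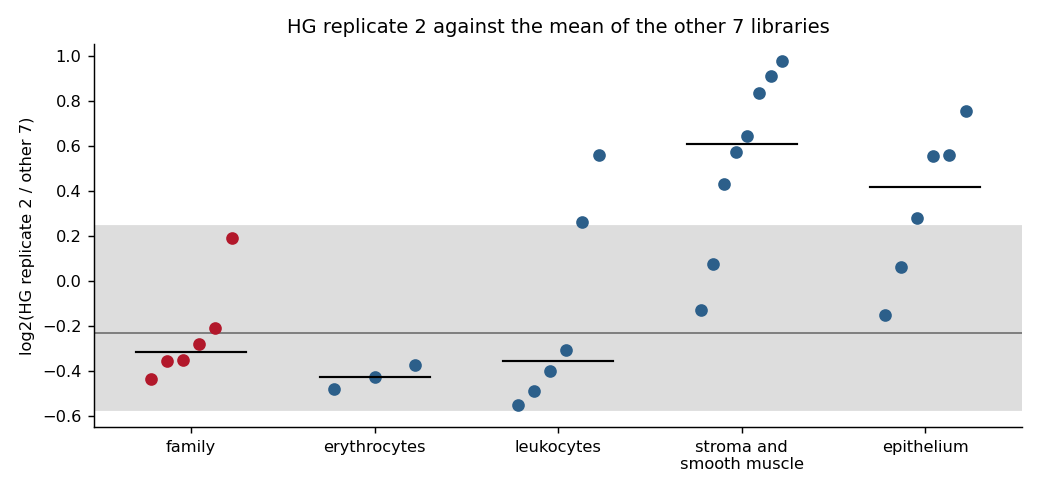
Log2 ratio of the share in HG replicate 2 to the mean share in the other 7 libraries (y axis) for the members and the marker miRNAs of each cell type, with each entry as a point, medians as black bars, and the median and interquartile range of all 377 entries as the grey line and band. Members (median −0.32), erythrocyte markers (−0.43) and leukocyte markers (−0.36) have medians below that of all entries, and stroma (0.61) and epithelium (0.42) above it.

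Among the 7 libraries without HG replicate 2, bta-miR-16b varied the most of the members in relation to counting error. For a given spread between libraries this measure grows with the reads, of which bta-miR-16b had the most. By the coefficient of variation itself bta-miR-497 varied the most. The coefficient of variation of the share was 1.72% for bta-miR-15b where counting error alone gives 1.12%, 2.25% against 0.979% for bta-miR-16b and 1.62% against 1.41% for bta-miR-16a. For bta-miR-15a it was 3.53% against 3.48%, for bta-miR-195 8.38% against 6.68% and for bta-miR-497 24.3% against 20.6%. As chi-square per degree of freedom these were 2.37 for bta-miR-15b, 5.29 for bta-miR-16b, 1.35 for bta-miR-16a, 1.19 for bta-miR-15a, 1.75 for bta-miR-195 and 1.10 for bta-miR-497, beside a median of 1.36 over the 250 bovine entries with enough reads. With HG replicate 2 the values of bta-miR-15b, bta-miR-16b and bta-miR-16a were 61.9, 58.9 and 27.0.

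The bovine entries outside the family most like each member over the 8 libraries were sought by Pearson correlation of log2 normalised reads, which is a description since all entries share the libraries and their depth. Outside the family, bta-miR-15b was most like bta-miR-142-5p, a leukocyte miRNA (r = 0.981), bta-miR-2285t (r = 0.976) and bta-miR-451, the erythrocyte miRNA (r = 0.9502). Without HG replicate 2 these were 0.726, 0.529 and 0.264. Bta-miR-16a, again with the members left out, was most like bta-miR-93 (r = 0.957), bta-miR-1343-3p (r = 0.955) and bta-miR-2285t (r = 0.954), of which bta-miR-1343-3p kept 0.914 over 7 libraries and the others 0.525 and 0.321. Bta-miR-16b was most like the muscle miRNA bta-miR-133a (r = 0.941), bta-miR-142-5p (r = 0.913) and the neuronal miRNA bta-miR-124a (r = 0.911), with 0.730, 0.559 and 0.541 over 7 libraries. Leaving out HG replicate 2 thus lowered each of these correlations, least for bta-miR-1343-3p (174 reads in all).

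The scarcer members had other companions. Bta-miR-15a was most like bta-miR-432 (r = 0.767, 32 reads in all), bta-miR-301a (0.745) and bta-miR-1306 (0.703). Without HG replicate 2 these were 0.774, 0.748 and 0.708. Bta-miR-195 was most like bta-miR-2285g (0.802), bta-miR-147 (0.699) and bta-miR-660 (0.679), and bta-miR-497 bta-miR-302c (0.802), bta-miR-494 (0.785) and bta-miR-127 (0.750). Over 7 libraries the values were 0.865, 0.729 and 0.664 for bta-miR-195 and 0.869, 0.841 and 0.702 for bta-miR-497. Among the members themselves bta-miR-15b and bta-miR-16a correlated at 0.970 over 8 libraries and at 0.611 over 7, bta-miR-15b and bta-miR-16b at 0.889 and 0.360, and bta-miR-16a and bta-miR-16b, which share reads, at 0.852 and 0.141. Of the partners in the other pairs, bta-miR-15a and bta-miR-16a correlated at 0.10 over 8 libraries and 0.28 over 7, and bta-miR-195 and bta-miR-497 at −0.46 and −0.41. The most negative correlation among the member pairs was that of bta-miR-15a with bta-miR-195, at −0.83 over 8 libraries and −0.85 over 7. It was picked out as the extreme of these pairs. Over the 7 libraries the share of bta-miR-15a varied hardly more than counting error (3.53% against 3.48%), so this value may rest largely on counting error.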

How the data were processed

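Small RNA of rumen fluid was sequenced in 8 libraries. The authors demultiplexed the reads with bcl2fastq 2.20 (submitters' processing notes), trimmed adapters with Skewer and mapped them by sRNAbench and Bowtie to build UMD3.1, using miRBase entries of cattle and humans. Per library, the authors deposited read counts for mature entries, where a multi-mapping read adds a full count to every entry it fits, and expected counts, where it is divided among them. The deposited RPM of all reads and the deposited score, RPM of miRNA reads, were used to recover the totals. Also deposited is a table of normalized counts, not used here.

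Entries that reached 10 reads in 1 or more libraries were tested on their counts with edgeR 4.0.16 (R 4.3.3), TMM scaling, cow and diet as terms, the quasi-likelihood test and Benjamini-Hochberg adjustment at 0.05. The script was tested on simulated data. DESeq2 1.42.0 was an alternative, beside other scalings, no minimum, divided reads, identical entries left out, no block and each cow left out. Shares have 95% Wilson intervals, and a count of 0 was bounded at 3 reads. Intervals and bounds cover counting error only, since the reads carry no molecular identifiers. The family share took divided reads of the 6 members and of the human entries hsa-miR-16-5p and hsa-miR-15a-5p. Expected counts were rounded for edgeR. Summaries were made with Python 3.11.15.

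Named entries were the 6 members, their human counterparts and opposite arms, the bovine miR-15/miR-107 group and the 3 bovine entries outside the family most correlated with each member, entries with reads identical to its own left out. Entries with the same seed were to be added, but no mature sequences were used here. The members, the marker lists and the group were chosen with earlier results of these data known.

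Libraries with the same number were paired as 1 cow, since the same 4 cows were sampled on both diets and the labels number them alike. Deviations of same-numbered libraries from their diet mean correlated at 0.00, −0.09, 0.05 and −0.01 across entries, so the data themselves show no pairing. The study appears to order the cows differently elsewhere, so which HG library belongs to which cow is uncertain.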

Additional observations from a re-analysis of the deposited data

Results flagged for a closer look

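Within each diet the highest and the lowest of the 4 libraries were compared with the others by the gap to the nearest library divided by the range, and 6 of 28 groups exceeded Dixon's 95% critical value, where chance flags about 1 in 20. The groups are not independent, since the family share and the ratios reuse the reads of the members, so the number of flags is no measure of its own. In 5 of them HG replicate 2 was the lowest HG library. The gap was 0.907 of the range for the family share (4.59% of miRNA reads), 0.926 for bta-miR-16b (2.03%), 0.917 for bta-miR-15b (1.46%), 0.848 for bta-miR-16a (0.980%) and 0.884 for the log2 ratio of bta-miR-15b to bta-miR-16b (−0.48). The sixth was bta-miR-15b in forage replicate 2, at 1.94% with a gap of 0.837, in a group whose standard deviation was 0.0354%.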

How the results depend on the processing

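Over all settings tried, 0 of the 6 members was called for the diet. The number of entries called ran from 0 to 2 when each cow was left out, with 2 called without replicate 2, and it was 0 under the other settings. The log2 fold change of bta-miR-16b turned from −0.03 to 0.0026 without replicate 2 (−0.061 to 0.0026 over the cows left out) and to 0.0045 with no replicate block and without HG replicate 2. All other tested values of the members kept their direction and their side of the threshold. In the wider group, for which these settings were read after seeing the data, bta-miR-103 turned from 0.01 to −0.0082 with divided reads, −0.0063 with identical entries left out and −0.037 with miRNA reads as library size. Bta-miR-107 turned from −0.07 to 0.0098 without replicate 2 (−0.12 to 0.0098 over the cows left out) and to 0.0087 with no replicate block and without HG replicate 2. Bta-miR-503-5p turned from −0.28 to 0.14 without replicate 1 and 0.087 without replicate 2 (−0.81 to 0.14 over the cows left out) and to 0.098 with no replicate block and without HG replicate 2. Differences in share or ratio between diets, which have no test, changed sign in 8 cases within the spread between replicates: the share of bta-miR-195 in 3, that of bta-miR-16b in 2, the ratio of bta-miR-15a to bta-miR-16a in 2 and that of bta-miR-16b to bta-miR-16a in 1. The family share from undivided reads of the 6 entries was added after seeing the data. Depth limits bta-miR-497, with 9 to 33 reads per library.

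With no replicate block, edgeR called 0 entries and 0 members, and the log2 fold changes were −0.03 for bta-miR-15a, −0.08 for bta-miR-15b, −0.04 for bta-miR-16a, −0.03 for bta-miR-16b, 0.09 for bta-miR-195 and −0.21 for bta-miR-497. On the 8 libraries the block thus changed no call.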
